A study of Arabidopsis thaliana with 3 samples.

Results

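The genes described here are transcription factor genes of Arabidopsis thaliana whose symbol is a family name followed by a number. The families looked for were MYB, WRKY, NAC, bHLH, ERF, TCP, bZIP and GATA, and 28 of the 12128 named genes with a value on all 3 arrays carried such a symbol. They were 12 bZIP, 8 WRKY and 6 bHLH genes, with NAC014 the only NAC gene and TCP15 the only TCP gene. No probe carried a MYB, ERF or GATA symbol of this form (0 genes in each), so the set is in fact one of bZIP, WRKY and bHLH factors, and the other 3 families are not analysed here. Each member had 1 probe. The seedlings were of ecotype Col-0, were kept in darkness for 4 days at 25 °C on a medium with 1% sucrose after 48 hours of cold, and came from about 500 seeds per plate. They were covered with the natural auxin IAA (indole-3-acetic acid), at 10 µM in 0.1% ethanol, or with 0.1% ethanol alone as the control, and were frozen after 20, 40 or 60 minutes. Each time had 1 two-colour array of total RNA, with ethanol as channel 1 and IAA as channel 2, and no replicate, so that a single ratio carries no error and time cannot be told apart from array.

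Transcription factors of these families bind short DNA motifs near the genes they control. WRKY proteins bind the W box and are best known from defence and leaf senescence. Basic leucine zipper (bZIP) and basic helix-loop-helix (bHLH) proteins bind as dimers to motifs with an ACGT core or to E boxes, and serve in stress, nutrient, light and developmental responses. The first transcriptional response to auxin runs through other families, the auxin response factors and their Aux/IAA repressors, which act on genes such as those of the GH3 and LBD families.

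Values are log2 ratios of the 2 channels as deposited. The labels do not say which channel is the numerator, so each value is called positive or negative. Positive values likely stand for more transcript with IAA than with ethanol, since GH3.1, GH3.3, HAT2, LBD16 and LBD29, all known to be raised by auxin, had log2 ratios of at least 1.58 on each of the 3 arrays. Over all named genes the median log2 ratio was 0.00, 0.03 and 0.01 at 20, 40 and 60 minutes. The spread was widest at 40 minutes, with a robust SD over named genes of 0.165, 0.221 and 0.109, so a fixed fold is passed more easily on that array. Ratios give no transcript level, and in whole seedlings fewer cells of a type and less RNA per cell cannot be told apart. The organ markers measured were the root hair genes EXPA7 and EXPA18, with mean log2 ratios of -0.22 and -0.35, and the greening genes PORB and LHCB4.1, at 0.10 and 0.07. Their part in the results was not tested.

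Of the 28 members, 8 stood at or beyond 1.5-fold (0.585 on the log2 scale) on either side at any time, where 10.8% of all named genes did. They were WRKY42, WRKY22, WRKY41, BZIP34, bZIP58, bZIP42, BHLH92 and bHLH121. At 2 or more times on the same side there were 0 of 28 members and 0.775% of named genes. The count leans on the 40-minute array, and without that array 3 of the 28 remained at or beyond 1.5-fold, namely WRKY22, WRKY41 and bZIP58. The share of named genes without that array is not given here, and 10.8% is no background for that count. At 20 minutes 1 member, WRKY22, passed on the positive side (1.24% of named genes) and 1, WRKY41, on the negative side (1.28%). At 40 minutes 4 passed on the positive side (5.73%), namely WRKY42, BZIP34, BHLH92 and bZIP42, and 1, bHLH121, on the negative side (1.38%). At 60 minutes 1 passed on the positive side, bZIP58 (2.24%), and 0 on the negative side (0.33%). With the arrays scaled to the same spread these counts became 2 positive and 0 negative at 40 minutes and 4 positive at 60 minutes. Shares of named genes under this scaling are not given here. The member just inside the threshold was WRKY22, with a largest absolute log2 ratio of 0.67, and the nearest outside was NAC014, at 0.51. At 2-fold there were 0 members on either side at 20 minutes (0.165% of named genes positive and 0.28% negative). At 40 minutes WRKY42 was the 1 positive member (1.2%) and 0 were negative (0.115%), and at 60 minutes bZIP58 was the 1 positive member (0.355%) and 0 were negative (0.0247%).

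**Figure D1:**
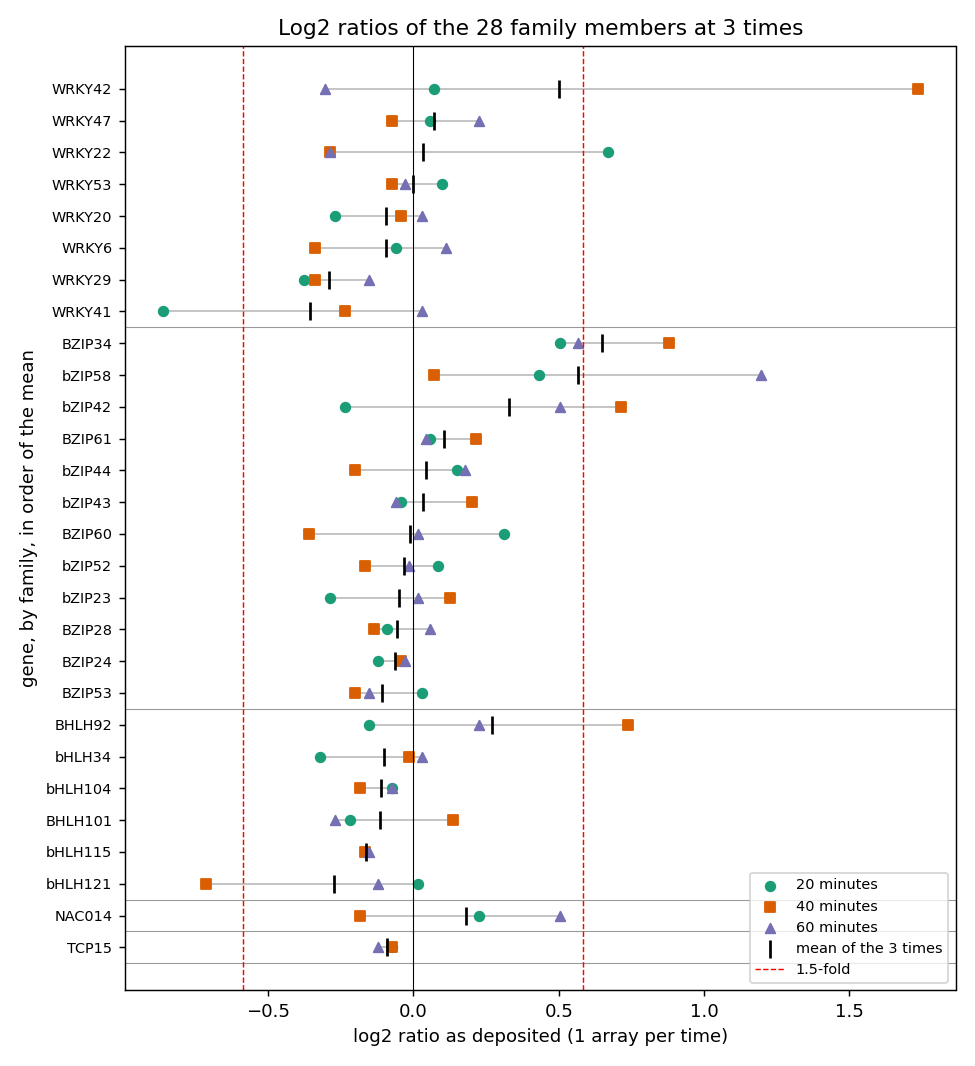
Log2 ratio as deposited (x axis) of each of the 28 genes (y axis, grouped by family and ordered by mean), with a point for each time, a bar for the mean of the 3 times and dashed lines at 1.5-fold. Most points lie within 0.4 of 0, and BZIP34 is the member whose 3 points all lie at or above 0.51.

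The mean over the 3 times was tested against 0 across 21860 genes and unnamed probes. Among the members 0 passed (limma, Benjamini-Hochberg adjusted p under 0.05), where 0.033% of named genes and 0.0869% of all genes and probes did. At an unadjusted p under 0.05 there was 1 member on the positive side, BZIP34 (3.71% of named genes), and 1 on the negative side, WRKY29 (1.1%). The spread in this test is that between times, so a ratio that changes within the hour passes less easily, and the test takes the 3 times in the place of replicates. Values above 0 were held by 13 of the 28 members at 20 minutes, 9 at 40 minutes and 15 at 60 minutes, where 47.6%, 53.1% and 51.1% of named genes had them.

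BZIP34 was the member with the highest mean. It is a bZIP gene of group E known from pollen development. Its log2 ratios at 20, 40 and 60 minutes were 0.51, 0.88 and 0.57, which are ratios of 1.42, 1.84 and 1.48. All 3 values were on the positive side and within 0.37 of each other. Its mean was 0.65 ± 0.20 (SD over 3 times), the rank 40 of 12128 named genes, and the test gave an adjusted p of 0.557 (limma, unadjusted 0.00143). It was the single member among the highest 10% of named genes at all 3 times, where 0.503% of named genes were, a condition chosen after its values were seen. Scaling the arrays left its mean at 0.65. The probes numbered next to its own, 10 on each side, had median log2 ratios of -0.01, 0.04 and 0.00, and the highest of them at 40 minutes stood at 0.59. Whether the place of the probe bears on the value of BZIP34 was not tested.

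BZIP61, the other gene of group E, went from 0.06 through 0.21 to 0.04. It too was positive at each time, with its highest value at 40 minutes, and at a mean of 0.10 ± 0.10 (SD over 3 times) it stood well below BZIP34. Members positive at all 3 times numbered 3 of 28, with bZIP58 the third, a share no higher than the 12.9% of named genes. All 3 were bZIP genes, the largest family, with 12 of the 28 members.

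The 5 members of bZIP group S, small factors of which several act in energy and sugar signalling, differed among themselves. bZIP58 had log2 ratios of 0.43, 0.07 and 1.20 at 20, 40 and 60 minutes. The last, a ratio of 2.29, was the highest value of any member at 60 minutes, at percentile 99.8 of named genes. Its mean was 0.57 ± 0.57 (SD over 3 times, limma adjusted p = 1.0). The 20 probes next to it in number had a median of 0.12 at 60 minutes, and the highest of them stood at 1.54. Whether the place of the probe bears on the value of bZIP58 was not tested.

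bZIP42 stood at -0.23, 0.71 and 0.51, negative at 20 minutes and then positive at both later times. The 20 probes next to it in number had a median of 0.05 at 40 minutes, and the highest of them stood at 1.24, above bZIP42 itself. bZIP43, a group S protein reported to pair with the group E factors, stood at -0.04, 0.20 and -0.06. bZIP44, of the group S branch that pairs with group C bZIP proteins and linked to seed germination, stood at 0.15, -0.20 and 0.18. BZIP53, of the same branch and known as an activator of seed maturation genes, stood at 0.03, -0.20 and -0.15. The median of the 5 genes at 60 minutes was 0.18, the value of bZIP44 itself, beside 0.01 for all named genes. Positive values at that time were held by 3 of 5, and by 51.1% of named genes.

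The remaining bZIP members stayed within 0.4 of 0 at each time. BZIP60 and BZIP28 are the membrane-linked activators of the unfolded protein response of the endoplasmic reticulum. BZIP60 stood at 0.31, -0.36 and 0.01, and BZIP28 at -0.09, -0.14 and 0.06. Both were negative at 40 minutes and slightly positive at 60 minutes. The group F genes are bZIP23, an activator of zinc uptake genes under zinc deficiency, and BZIP24, linked to salt responses. bZIP23 stood at -0.29, 0.12 and 0.01, and BZIP24 at -0.12, -0.04 and -0.03. bZIP52, of group I, stood at 0.08, -0.17 and -0.01.

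WRKY42 had the largest single ratio of all members. It belongs to WRKY group IIb and is known as a repressor of the phosphate exporter gene PHO1. Its log2 ratios at the 3 times were 0.07, 1.74 and -0.30. The 40-minute value, a ratio of 3.33, lay at percentile 99.9 of named genes, and the 60-minute value at percentile 2.6. Its range over the 3 times, 2.04, was the widest of the members, and its mean of 0.50 ± 1.09 (SD over 3 times) was -0.12 without the 40-minute array. The 20 probes next to it in number reached at most 0.53 at 40 minutes. The gene that follows it on chromosome 4, AT4G04460, stood at -0.30 at 40 minutes.

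The other group IIb genes did not share that value. WRKY6, which represses PHO1 as well and acts in leaf senescence, stood at -0.06, -0.34 and 0.11. WRKY47 stood at 0.06, -0.07 and 0.23. Both were negative at 40 minutes, when WRKY42 was high.

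WRKY22 and WRKY29, the group IIe factors that act together downstream of a mitogen-activated protein kinase cascade of innate immunity, differed at 20 minutes. WRKY22 had log2 ratios of 0.67, -0.29 and -0.29. WRKY29 had -0.38, -0.34 and -0.15. WRKY22 was thus at percentile 99.3 and WRKY29 at percentile 4.0 of named genes at 20 minutes, and both were negative at 40 and 60 minutes. WRKY29 was the single member among the lowest 10% of named genes at all 3 times (0.148% of named genes), a condition chosen after the values were seen. At 60 minutes it stood at percentile 9.6. WRKY29 had a mean of -0.29 ± 0.12 (SD over 3 times, limma adjusted p = 1.0, unadjusted p = 0.0185). Leaving out any array kept its mean between -0.36 and -0.25.

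Among the group III genes, WRKY41, linked to immunity and seed dormancy, stood at -0.86, -0.23 and 0.03. The first, a ratio of 0.55, was the lowest value of any member at any time. WRKY53, a regulator of the onset of leaf senescence, stood at 0.10, -0.07 and -0.03 and had the smallest of all the members' largest absolute ratios. WRKY20, of group I, stood at -0.27, -0.04 and 0.03.

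The WRKY genes were mostly alike in sign at 40 minutes and not at the other times. At that time 7 of 8 were below 0, where 43.8% of named genes were, and those 7 lay between -0.34 and -0.04. Their median was -0.23, and that of all 8 genes was -0.15. At 20 and at 60 minutes 4 of the 8 were below 0 (48.7% and 42.6% of named genes). ZAP1, a WRKY gene by its RefSeq synonym and not a member, stood at -0.03, 0.16 and 0.00. With it, 7 of 9 genes were below 0 at 40 minutes and their median was -0.07. The 40-minute array was singled out after the values were seen. Of the 8 WRKY genes 7 lie on chromosome 4 by their locus codes, which holds 14.2% of named genes.

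The bHLH members are mostly genes of iron homeostasis. bHLH34, bHLH104 and bHLH115 belong to group IVc and, together with bHLH121, switch on the iron deficiency response. BHLH101, of group Ib, is among the genes they activate and in turn helps to raise iron uptake. bHLH34 stood at -0.32, -0.01 and 0.03, bHLH104 at -0.07, -0.18 and -0.07, and bHLH115 at -0.17, -0.17 and -0.15. bHLH115 thus varied by 0.02 over the 3 arrays, the smallest range of the members, a single rounding step of the deposited ratios. bHLH104 and bHLH115 were negative at all 3 times, as were WRKY29, BZIP24 and TCP15, in all 5 of 28 members (8.83% of named genes).

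bHLH121 stood at 0.01, -0.71 and -0.12. Its 40-minute value, a ratio of 0.61, was the lowest of the members on that array, and at 40 minutes the 20 probes next to it in number had a median of 0.14 and a lowest value of -0.09. BHLH101 stood at -0.22, 0.14 and -0.27, negative at 20 and 60 minutes. All 5 iron-related members had means below 0, from -0.27 to -0.10, where 46.4% of named genes had. With ILR3, an iron-related bHLH gene by its RefSeq synonym and not a member, it was 5 of 6. ILR3 had a mean of 0.04. None of the 5 members passed the test (limma, adjusted p = 1.0 for each), and the unadjusted p was 0.0736 for bHLH115, the lowest among them. The sixth bHLH member, BHLH92, which is linked to salt and osmotic stress, stood at -0.15, 0.74 and 0.23. Its 40-minute ratio of 1.67 set it apart from the iron-related members, the highest of which stood at 0.14 on that array. The 20 probes next to BHLH92 in number had a median of 0.08 at 40 minutes, and the highest of them stood at 1.37, above BHLH92 itself. Whether the place of the probe bears on the value of BHLH92 was not tested. Of the genes that neighbour BHLH92 on the chromosome, AT5G43660 stood at 0.66 and AT5G43640 at 0.30 at 40 minutes.

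NAC014, a gene of the NAC family, stood at 0.23, -0.18 and 0.51, positive at 20 and 60 minutes. TCP15, which with its relative TCP14 regulates cell proliferation in young organs, stood at -0.07, -0.07 and -0.12. TCP15 and WRKY53 were the 2 measured genes of a list of 16 factors linked to auxin or to root growth, and neither reached 1.5-fold at any time.

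Set side by side, the 3 larger families differed little in their medians. The median of the mean log2 ratios was 0.01 for the 12 bZIP genes, -0.05 for the 8 WRKY genes and -0.11 for the 6 bHLH genes, beside 0.01 for all named genes. The SD over the 3 times of the family's median ratio was 0.01, 0.09 and 0.04. At 20 minutes the medians were 0.04 for bZIP, 0.00 for WRKY and -0.16 for bHLH. At that time 5 of 6 bHLH genes were below 0, and 6 of 9 with genes named by synonym, where 48.7% of named genes were. At 40 minutes they were 0.01, -0.15 and -0.09, and at 60 minutes 0.03, 0.00 and -0.10. The bHLH median was the only one of the 3 below -0.05 on every array. That did not hold with genes named by RefSeq synonym, when the 9 bHLH genes had medians of -0.07, -0.01 and -0.07. Leaving out any array kept the median of the bHLH means between -0.15 and -0.10, whereas that of bZIP lay between -0.02 and 0.04 and so had no settled sign. Members at or beyond 1.5-fold at any time numbered 3 of 12 bZIP, 3 of 8 WRKY and 2 of 6 bHLH genes, where 10.8% of named genes were. The families were not tested against each other, since genes are not replicates and 3 arrays allow an exact sign-flip test no p below 0.25 (two-sided).

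**Figure D2:**
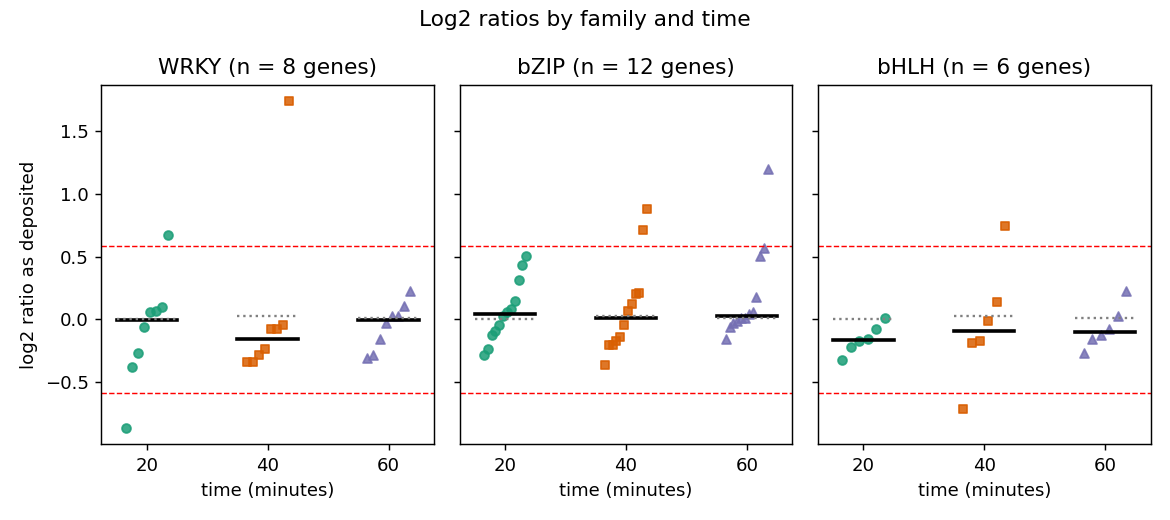
Log2 ratio as deposited (y axis) of each gene of the WRKY, bZIP and bHLH families at 20, 40 and 60 minutes (x axis, genes spread sideways in order of value), with the family's median as a black line, that of all named genes as a dotted line and 1.5-fold as dashed lines. The bHLH medians lie at -0.16, -0.09 and -0.10, and WRKY42 stands alone at 1.74.

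The families differed more in where their wide values fell, in part through single genes. Among the bZIP genes the SD between genes was 0.25, 0.38 and 0.38 at 20, 40 and 60 minutes, beside 0.23, 0.31 and 0.21 for all named genes. The 60-minute bZIP value includes bZIP58, at 1.20, and the SD without that gene is not given here. Among the WRKY genes it was 0.44, 0.69 and 0.19, and without WRKY42 it was 0.47, 0.13 and 0.17, so the 40-minute spread rests on that gene. Among the bHLH genes it was 0.12, 0.48 and 0.17, and without BHLH92 it was 0.13, 0.32 and 0.11. The median range of a gene over the 3 times was 0.32 for bZIP, 0.38 for WRKY and 0.38 for bHLH, and 0.30 for all named genes.

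Across the 28 genes, which are not independent replicates, Spearman's rho was -0.09 between the 20- and 40-minute ratios, 0.15 between 20 and 60 minutes and 0.24 between 40 and 60 minutes. Over all named genes these were -0.17, -0.01 and 0.23. Without WRKY42 the 27 other members had values of -0.14, 0.20 and 0.38, so the one between 40 and 60 minutes depended on that gene. Across all 28, a member's ratio at a given time said little about its ratio at another.

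Other factor families were set beside the members on the same arrays. Under a symbol of the families IAA, LBD, HAT, ARR, RR and SCL, 16 genes were measured. Of the 16, 6 stood at or beyond 1.5-fold at any time (10.8% of named genes), and 3 did so at 2 or more times on the same side (0.775%), namely LBD16, LBD29 and HAT2. At or beyond 2-fold at any time there were 5 of the 16 and 2 of the 28 members, WRKY42 and bZIP58, where 1.88% of named genes were. HAT2 passed the test of the mean (limma, adjusted p = 0.0270). LBD16, LBD29 and HAT2 are among the genes used above to read the direction of the ratios, so their high values were known beforehand. Over the full comparison list 15 of 57 genes were at or beyond 1.5-fold at any time, beside 8 of the 28 members. The difference between the sets was not tested.

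BZIP34 and BZIP61 lie near LBD16 and LBD29 on their chromosomes, a position looked up after the values were seen. LBD16 and LBD29 are auxin-induced factors of lateral root formation. In the order of locus codes in RefSeq (assembly TAIR10.1), 4 protein-coding genes stand between BZIP34 and LBD16 on chromosome 2, and 6 between BZIP61 and LBD29 on chromosome 3. LBD16 stood at 1.62, 1.94 and 2.56, and LBD29 at 1.58, 2.16 and 2.91. Both LBD genes stood above both bZIP genes at each of the 3 times.

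Of the 4 genes between BZIP34 and LBD16, 0 were measured under a name. On the far side of BZIP34, AT2G42370 stood at 0.07, 0.03 and 0.55, and AT2G42360 at 0.19, -0.56 and -0.04. Of the 6 genes between BZIP61 and LBD29, 3 were measured. AT3G58140 stood at 0.04, 0.19 and -0.06, AT3G58150 at -0.94, 0.15 and 0.86, and XIJ, a myosin gene, at 0.03, -0.49 and 0.14. AT2G42370 was the only one of these 5 neighbours with a positive value at all 3 times, where 12.9% of named genes had. The 5 are a part of the measured genes looked at beside the pairs, 4 around BZIP34 and LBD16 and 9 around BZIP61 and LBD29. Whether the position near an LBD gene bears on the ratios was not tested.

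**Figure D3:**
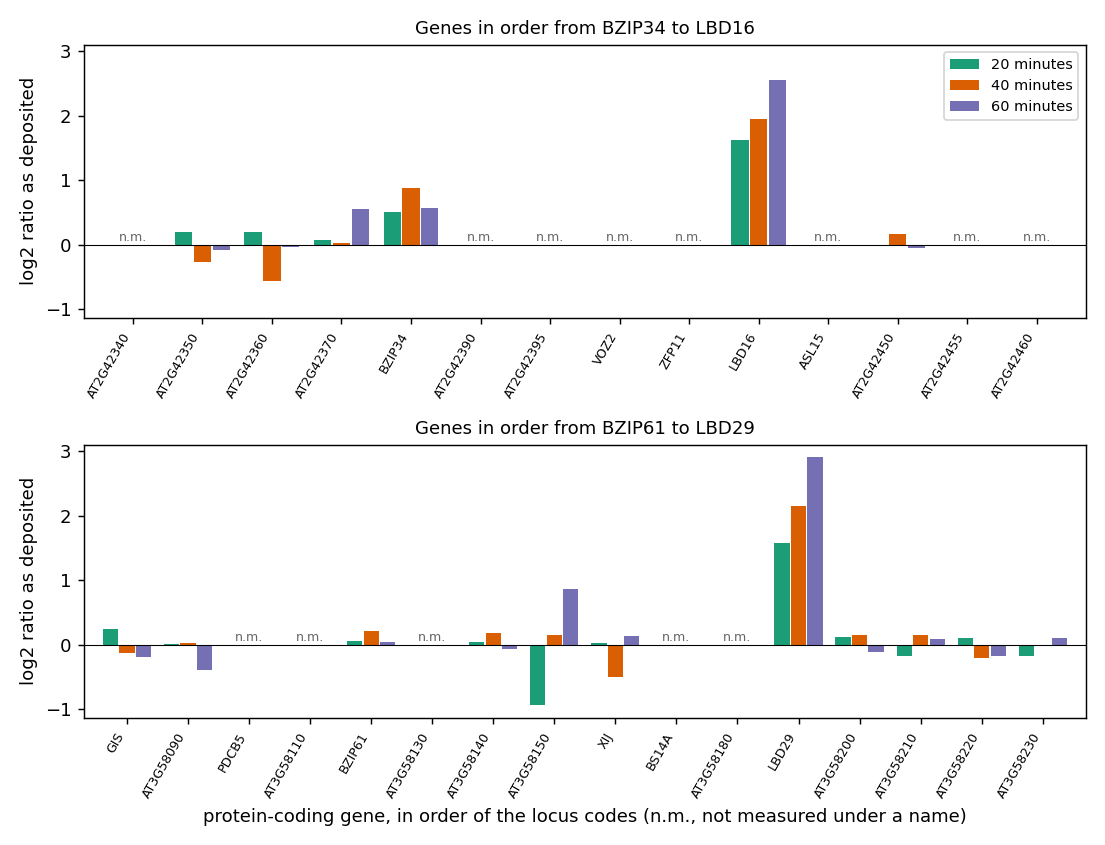
Log2 ratio as deposited (y axis) at 20, 40 and 60 minutes (bars) of protein-coding genes in the order of their locus codes (x axis) around BZIP34 and LBD16 (top) and around BZIP61 and LBD29 (bottom), with n.m. for a gene not measured under a name. LBD16 and LBD29 reach 2.56 and 2.91, BZIP34 stays between 0.51 and 0.88, and BZIP61 between 0.04 and 0.21.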

How the data were processed

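The authors deposited a single table of 21939 probes by 3 arrays, in log2 units. The log base follows from the values themselves, since raising 2 to them gave multiples of 0.01 for 100% (tolerance 1e-05). Which channel is the numerator, the dyes, the background correction and the normalization by the authors are not given in the labels, and no spot intensities were used. Precision is limited by the number of arrays.

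Of the probes, 12195 had 1 gene in the platform annotation, 1 had several, and 9743 were not listed there. Probes of a gene were averaged. Of the 12195, 12142 matched RefSeq (TAIR10.1) by gene identifier. The mean ratio was tested with limma 3.58.1 in R 4.3.3 (intercept, empirical Bayes, two-sided, Benjamini-Hochberg over 21860 features) after a test on simulated data. Percentiles are ranks among named genes.

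The members and lists were chosen with earlier results of these data known. Genes were named by this rule: members at or beyond 1.5-fold at any time, the 2 highest and 2 lowest means of each family, and measured genes of the auxin-linked list. The other members are given so that all 28 are accounted for. Subgroups are background knowledge, set after the values were seen. Protein and promoter sequences were not used here. Some genes of the comparison list of other factor families are not reported here.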

Additional observations from a re-analysis of the deposited data

Results flagged for a closer look

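WRKY42 stood on opposite sides at 40 and 60 minutes, with log2 ratios of 1.74 and -0.30, a difference of 2.04. It was the single member with values on opposite sides of 0 that lay at least 1 log2 unit apart. The share of named genes with such values is not given here. A range of at least 1 log2 unit, whatever the sides, was held by 2 of 28 members and by 3.99% of named genes. With 1 array per time the difference was not tested.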

How the results depend on the processing

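Counts at 1.5-fold depended on the scale of the arrays and on the threshold. With the arrays scaled to the same median absolute deviation, 2 members were positive and 0 negative at 40 minutes, and 4 were positive at 60 minutes. At 2-fold there were 0 members on either side at 20 minutes, 1 positive and 0 negative at 40 minutes, and 2 members at any time. With membership by RefSeq synonyms 2 members were negative at 40 minutes. Leaving out each array in turn, which was chosen after seeing the data, members at any time numbered between 3 and 7. Shares of named genes with scaled arrays or without an array are not given here, so those counts have no background beside them. The median of the bZIP means lay between -0.025 and 0.042 without an array and was -0.028 with synonyms. The count of members passing the limma test was 0 under every alternative run, and the counts at an unadjusted p under 0.05 were 2 or 3. Centring the arrays and leaving out genes with several probes changed no count. Without an array the sign of the mean turned for 11 members, with values from -0.12 to 0.90 for WRKY42, -0.0087 to 0.14 for WRKY47, -0.29 to 0.19 for WRKY22, -0.052 to 0.034 for WRKY53, -0.20 to 0.026 for WRKY6, -0.025 to 0.16 for bZIP44, -0.051 to 0.079 for bZIP43, -0.17 to 0.16 for BZIP60, -0.091 to 0.035 for bZIP52, -0.14 to 0.069 for bZIP23 and -0.17 to 0.0070 for bHLH34. The mean of BZIP60 was 0.021 with scaled arrays. Fits without an array have 1 residual degree of freedom. The causes were not tested. No paired analysis was possible because each time had 1 array and the labels give no replicate numbers.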

Other observations

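A further 12 genes carry a family name among their RefSeq synonyms. Of the 7 bZIP genes among them, 6 belong to group I, as bZIP52 does, whose members act in cell proliferation, pollen and mechanical or osmotic responses. AT1G06070 (bZIP69) stood at 0.08, -0.67 and -0.27 at 20, 40 and 60 minutes, and was the single gene of the 12 to reach 1.5-fold, with its negative value at 40 minutes. The 7 group I genes with bZIP52 included had medians of 0.08, -0.14 and -0.01, with 6 of 7 above 0 at 20 minutes (47.6% of named genes) and 6 of 7 with a mean below 0 (46.4%). With synonyms, 9 of 40 genes were at or beyond 1.5-fold at any time, where 10.8% of named genes were.

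ILR3 (bHLH105), the fourth group IVc gene of the iron deficiency response and named for mutants resistant to an IAA conjugate, stood at 0.07, -0.01 and 0.07, unlike bHLH104 and bHLH115, which were negative throughout. PYE (bHLH47), a repressor in the same pathway, stood at -0.23, 0.20 and -0.38, with the same signs as BHLH101 at each time. The zinc transporter gene ZIP9, a target of bZIP23, stood at -0.06, 0.23 and 0.10. Like bZIP23 it was negative at 20 minutes and positive at 40 and 60 minutes. The ratio of bZIP23 at 60 minutes was 1.01, a single rounding step from no difference. PYE and ZIP9 were the 2 measured genes of 27 partner genes listed after the members' values were seen. Shares of named genes with such sign patterns are not given here, and no link within either pair was tested. MYBC1, whose symbol has no number directly after the family name, stood at 0.00, 0.01 and 0.30.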
